A study of Sus scrofa with 2 samples.

Results

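Some reads of a miRNA begin 1 to 3 bases before or after the start of the sequence that databases list for it. Such shifted tags were taken from the miRNA-matched tag lists of 2 pig testis libraries. A tag is 1 distinct sequence with its read count. It was kept when it was 24 bases or shorter, had 0 mismatches in the authors' alignment, and overlapped its named database entry over 15 or more identical bases only at an offset of 1 to 3 bases at the 5′ end. Of 93229 distinct tags listed in either library, 3448 met this rule, under 396 miRNA names. At 30 days they were 3153 tags with 266751 of 7525725 listed reads, and at 180 days 1403 tags with 29795 of 852209.

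The tissue was whole testis of Junmu-1 pigs, a white breed indigenous to China, and its small RNA was read at 30 days, when the boars were sexually immature, and at 180 days, when they were sexually mature. No treatment or genetic change is named for either group. Each library held the pooled RNA of 3 boars, with 1 library per age, so no spread between animals was measured. Differences below describe these libraries, not the ages, and no test or p-value is given.

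The first cut of a miRNA precursor, by Drosha, sets the 5′ end of the strand on the 5p arm, and the second, by Dicer, sets the 5′ end of the strand on the 3p arm. A miRNA finds its targets mainly through its seed, bases 2 to 8 counted from the 5′ end, so a shifted start gives the RNA another seed. Argonaute proteins, which carry the miRNA, tend to favour U or A as the first base.

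All sequences are printed 5′ to 3′ as the lists give them, with T for U, and capitals mark the seed. The first set is miR-140* and miR-140, the 3p strand of the cartilage-associated miR-140 precursor, shown because it held more shifted reads than any other name. The zebrafish entry of miR-140* starts 1 base before the dog entry of miR-140, and the leading shifted tag starts where the dog entry does.
miR-140* zebrafish entry: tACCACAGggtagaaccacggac
miR-140* shifted tag, 1 base later: aCCACAGGgtagaaccacggac

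The second set is miR-199a-3p, known from mesenchymal cells, shown because its +1 tag ranked second and took the seed of a chicken entry named miR-199b.
miR-199a-3p mouse entry: aCAGTAGTctgcacattggtta
miR-199a-3p shifted tag, 1 base later: cAGTAGTCtgcacattggtta
miR-199b chicken entry: cAGTAGTCtgcacatttggt

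The third set is miR-10b, encoded in a Hox cluster, shown because its entries disagree on the start. The rat entry begins 2 bases after the mouse entry, and the shifted tags begin between them, with the seed of fruit fly miR-10.
miR-10b mouse entry: tACCCTGTagaaccgaatttgtg
miR-10b rat entry: cCCTGTAGaaccgaatttgtgt
miR-10b shifted tag: aCCCTGTAgaaccgaatttgtgt
miR-10 fruit fly entry: aCCCTGTAgatccgaatttgt

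The fourth set is let-7c, of the let-7 family that marks differentiated cells, shown with 1 start on each side of its entry and with a miR-196b entry, because the later start took the miR-196 seed.
let-7c entry: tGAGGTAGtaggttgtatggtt
let-7c shifted tag, 1 base later: gAGGTAGTaggttgtatggtt
let-7c shifted tag, 1 base earlier: cTGAGGTAgtaggttgtatggtt
miR-196b dog entry: tAGGTAGTttcctgttgttggga

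The fifth set is miR-202-5p, the gonadal miRNA, shown because it led the shift by 3 bases, in 1 tag of 18 bases.
miR-202-5p mouse entry: tTCCTATGcatatacttcttt
miR-202-5p shifted tag, 3 bases later: cTATGCATatacttcttt

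The sixth set holds miRNAs whose shifted share differed between the libraries by the rule given below (miR-214, miR-23b*, miR-203) and miR-296, whose reads nearly all missed the entry start.
miR-214 entry: aCAGCAGGcacagacaggcagt
miR-214 shifted tag, 1 base earlier: tACAGCAGgcacagacaggcagt
miR-23b* entry: tGGGTTCCtggcatgctgattt
miR-23b* shifted tag, 1 base later: gGGTTCCTggcatgctgattt
miR-203 entry: gTGAAATGtttaggaccactag
miR-203 shifted tag, 1 base later: tGAAATGTttaggaccactagt
miR-296 cow entry: gAGGGTTGggcggaggctttcc
miR-296 shifted tag, 1 base later: aGGGTTGGgcggaggctttcct

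The tissue label was checked on miRNAs of known cell types. Reads named miR-202, a miRNA of the gonads, stood at 68481 RPM (reads scaled by the listed total) at 30 days and 110872 RPM at 180 days. Reads of miR-34b, miR-34c and miR-449, which mark germ cells in meiosis and later, stood at 11.8 RPM at 30 days and 35301 at 180 days. In whole testis, fewer cells of a type and less RNA per cell cannot be told apart. The 30-day list was the deeper one, so 1 read was worth 0.133 RPM there and 1.17 RPM at 180 days.

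Shifted tags held a similar share of both lists. They made up 3.54% of listed reads at 30 days (exact Clopper-Pearson 95% interval 3.53% to 3.56%) and 3.50% at 180 days (3.46% to 3.54%). All intervals here are of this kind and cover counting error only, since PCR reads without molecular identifiers are not independent molecules. Of the reads in perfect tags of 24 bases or less, 93.4% at 30 days and 93.2% at 180 days began at the entry start, 4.06% and 4.21% were shifted, and 2.53% and 2.62% matched their entry at none of these offsets over 15 identical bases. By distinct tags the picture was different, because 22.4% of the perfect short tags at 30 days and 23.9% at 180 days were shifted.

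Many shifted tags were rare, and a small set of tags carried most of the reads. Tags read once numbered 1096 at 30 days and 624 at 180 days. The 165 tags with 100 or more reads at 30 days held 241125 of the shifted reads, and the 31 such tags at 180 days held 22607. The same sequences recurred: 1108 tags were shifted members in both libraries, 35.1% of the 30-day tags and 79.0% of the 180-day tags, with 97.5% and 97.1% of the shifted reads. All 1108 had the same name and offset in both lists. The 10 names with most shifted reads held 80.5% of them at 30 days and 78.4% at 180 days, and 9 names were in both sets.

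Starts 1 base later outnumbered all other shifts. They held 220445 reads, 82.6% of shifted reads, at 30 days and 23478 reads, 78.8%, at 180 days. Starts 1 base earlier held 22390 reads (8.39%) and 3469 reads (11.6%). The larger shifts were rarer: 9967 and 907 reads began 2 bases later, 12674 and 1716 began 3 bases later, 1044 and 178 began 2 bases earlier, and 231 and 47 began 3 bases earlier. Later starts together made up 91.1% of shifted reads at 30 days and 87.6% at 180 days.

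Each offset had its own leading name, the same one in both libraries. The +1 tags were led by miR-140* with 96037 reads at 30 days and 11769 at 180 days. The +2 tags were led by miR-199a-3p with 1387 and 80 reads, and the +3 tags by miR-202-5p with 7411 and 1316. The −1 tags were led by miR-10b with 2997 and 507 reads. At the rarest offsets the leaders were miR-1810 (−2, 181 and 38 reads) and miR-1937a (−3, 131 and 15 reads), names of chicken and mouse entries.

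For miR-140*, shifted tags held 96681 of 231504 perfect short reads at 30 days, or 41.8% (41.6% to 42.0%), and 11835 of 22191 at 180 days, or 53.3% (52.7% to 54.0%). The printed tag alone had 78928 reads at 30 days and 10069 at 180 days. This share depends on which entry a read was named after, because reads of the same start were also listed under the dog entry miR-140 and then counted as unshifted. Pooling both names by their physical start, the TACCACAG start held 44.8% of 468552 reads at 30 days and 29.1% of 52165 at 180 days. The ACCACAGG start held 53.1% (52.97% to 53.25%) and 68.0% (67.6% to 68.4%). The later start was the more read one in both libraries, and its share was higher at 180 days under either way of counting.

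Across all shifted reads, 37.8% at 30 days and 40.1% at 180 days matched a listed entry of some name from its first base without a mismatch. Those reads were mostly the +1 tags of miR-140*, with 95579 and 11735 reads, followed by the +1 tags of miR-199* with 4056 and 128. The other 62.2% and 59.9% had no such match. They include tags that begin like an entry but differ from it later, as the printed miR-199a-3p tag does from chicken miR-199b. Matches to an entry of the same name made up only 0.106% and 0.0906% of shifted reads.

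The mesenchymal miR-199 strand had 3 main starts. Under the name miR-199a-3p, 48379 of 398554 reads were shifted at 30 days, 12.1% (12.04% to 12.24%), and 3013 of 29069 at 180 days, 10.4% (10.0% to 10.7%). The names miR-199 and miR-199* had lower shares, 5.76% and 6.29% at 30 days and 4.38% and 5.21% at 180 days. Pooled over these names and miR-199-3p, the ACAGTAGT start held 81.2% of reads at 30 days and 85.4% at 180 days. The CAGTAGTC start, at which no entry of the pooled names begins, held 8.39% and 7.70%. The TACAGTAG start, where the zebrafish and chicken miR-199* entries begin, held 8.62% and 5.20%. All of these differences were below 10 percentage points.

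For miR-10b the sign of the offset rested on the entry. Shifted tags held 10099 of 68869 reads at 30 days, 14.7% (14.4% to 14.9%), and 1679 of 7324 at 180 days, 22.9% (22.0% to 23.9%). Shifted reads named after the rat entry were mainly counted 1 base early (2993 and 507 reads). Those named after the mouse entry (4165 and 774 reads) and the chicken entry (2892 and 392 reads) were mainly counted 1 base late. Yet nearly all of these reads begin with the same ACCCTGTA. Pooled by physical start, ACCCTGTA held 14.7% of miR-10b reads at 30 days and 22.9% at 180 days, and TACCCTGT held 84.4% and 76.4%. The difference of 8.26 points was larger than counting error but under the 10 points used for calls. Its neighbour in sequence, miR-10a, showed the same start: pooled with the entries named miR-10, ACCCTGTA held 13.6% of 1524 reads (11.96% to 15.47%) and 27.1% of 96 reads (18.5% to 37.1%).

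In the let-7 family, shifts were rare but of many reads. The let-7 names together had 22940 shifted reads of 2639119 at 30 days, 0.869%, and 2312 of 230250 at 180 days, 1.00%. The start 1 base earlier was the rarer side at 30 days and took a higher share at 180 days in each of the 4 most read names. For let-7c the 30-day share was 0.332% (0.318% to 0.346%) and the 180-day share 0.641% (0.560% to 0.731%). For let-7f they were 0.297% (0.279% to 0.315%) and 0.657% (0.589% to 0.731%), under the name let-7 0.269% (0.258% to 0.282%) and 0.630% (0.574% to 0.690%), and for let-7b 0.111% (0.102% to 0.121%) and 0.221% (0.173% to 0.280%). The intervals lay apart in all 4 names, though each difference was under 1 percentage point. The start 1 base later held 0.745% and 0.644% in let-7c, 0.605% and 0.400% in let-7f, 0.303% and 0.264% under let-7, and 0.409% and 0.329% in let-7b, and only in let-7f were those intervals apart. Near-identical let-7 members can share reads in such a list, so values of single members are uncertain.

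For miR-202-5p, the shifted share was 3.67% of 369288 reads at 30 days (3.61% to 3.74%) and 2.90% of 70970 at 180 days (2.77% to 3.02%). Named apart, miR-202* had 148 of 6152 and 59 of 1124 reads shifted, and miR-202 and miR-202-3p, with 16 and 38 reads at 30 days, had 0. Among placed reads, the starts of the 5p strand did not fall off with distance. Pooled with miR-202*, which is the same strand, the +1 start had 6025 reads at 30 days and 714 at 180 days, the +2 start had 140 and 26, and the +3 start had 7444 and 1319. Of the pooled reads, 42278 of 374802 at 30 days and 5001 of 71996 at 180 days could not be placed at any start. Nearly all of the +3 reads were the 18-base tag printed above (7411 and 1316 reads), and 18 bases was the shortest tag in either list. Over all names, tags of 18 bases held 66.0% of the +3 reads at 30 days and 80.5% at 180 days, against 0.375% and 0.202% of reads at the entry start.

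Other names among the 10 with most shifted reads kept their shares within 5 points between the libraries. For miR-191, a widely expressed miRNA, 7.60% of 116971 reads were shifted at 30 days (7.45% to 7.76%) and 11.04% of 16827 at 180 days (10.57% to 11.52%). That difference was larger than counting error. Almost all of these reads began 1 base later (8799 and 1843 reads). For miR-26a the shares were 7.35% and 7.55%. Its shifted reads were spread over starts 1 base earlier (2103 and 361 reads), 1 base later (918 and 83) and 3 bases later (1310 and 83).

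To compare the libraries name by name, a name was called when its shifted share differed by 10 percentage points or more and the exact intervals did not overlap. Of 173 names with 50 or more perfect short reads in each library, 3 were called higher at 180 days (1.73%) and 3 lower (1.73%), 3.47% in either direction. The median share was 2.21% at 30 days and 1.95% at 180 days, and the median absolute difference was 0.934 points. Within 5 points lay 151 names. A share of 10% or more was reached by 25 names at 30 days and 24 at 180 days, 19 of them in both. Of the 10 names that differed by 10 points or more, 4 had overlapping intervals (miR-132*, miR-1839, miR-217 and let-7d*) and were not called.

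The names called higher at 180 days were miR-140*, miR-10a and miR-203. For miR-203, known from skin differentiation, 342 of 1094 reads were shifted at 30 days, 31.3% (28.5% to 34.1%), and 139 of 333 at 180 days, 41.7% (36.4% to 47.2%). Most of them began 1 base later (319 and 128 reads under the mouse entry). In tags of 2 or more reads the shares were 30.9% and 40.6%, just under the 10 points that a call needs. For miR-10a the shares were 9.49% of 1328 reads (7.97% to 11.2%) and 24.7% of 73 reads (15.3% to 36.1%), which rested on 126 and 18 shifted reads. The call of miR-10a ended with a minimum of 200 reads per library, which its 73 reads did not reach, and so did those of miR-23b* and miR-365* below.

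The names called lower at 180 days were miR-214, miR-23b* and miR-365*. For miR-214, transcribed together with a miR-199 gene, 1712 of 6104 reads were shifted at 30 days, 28.0% (26.9% to 29.2%), and 68 of 380 at 180 days, 17.9% (14.2% to 22.1%). These were mainly 1 base earlier (1631 and 64 reads), with an extra T. For miR-23b*, the less abundant strand of miR-23b, the shares were 35.7% of 1708 reads (33.4% to 38.0%) and 19.5% of 123 (12.9% to 27.6%), mainly 1 base later. For miR-365* the shares were 21.8% of 550 reads (18.4% to 25.5%) and 9.17% of 109 (4.49% to 16.2%). That name pools different human and platypus sequences: under the human entry 37.7% of 199 reads at 30 days (30.9% to 44.8%) and 17.4% of 23 at 180 days (4.95% to 38.8%) were 1 base early, and under the platypus entry 2.85% of 351 (1.37% to 5.18%) and 1.16% of 86 (0.0294% to 6.31%). The shares 1 base early were lower at 180 days under both entries, but the intervals overlapped within each. At 180 days they rested on 4 of 23 and 1 of 86 reads, too few to show whether the pooled difference held within either sequence. Shares 1 base late were 7.12% and 3.49% under the platypus entry, and 3.02% and 4.35% under the human entry, again with overlapping intervals. The mix of entries differed too: the human entry held 199 of 550 reads at 30 days and 23 of 109 at 180 days. How far this mix moved the pooled share was not tested.

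Grouped by lists of related miRNAs, 0 of 10 tested let-7 names, 0 of 2 miR-202 names, 0 of 4 smooth muscle names (miR-143 and miR-145), 0 of 3 striated muscle names and 0 of 1 name of the imprinted DLK1-DIO3 region were called. Of 7 mesenchymal names (miR-199 and miR-214), 1 was lower, miR-214. Of 4 names known elsewhere for more than 1 start, 1 was higher, miR-140*. Over all 173 names 3.47% were called, 1.73% in each direction, so with lists of 1 to 10 names a count of 0 or 1 sets no list apart. The median differences were -0.13 points for the let-7 list, -1.77 for the mesenchymal, -0.04 for the smooth muscle, -0.50 for the striated muscle and -0.20 for the DLK1-DIO3 list, 1.03 for miR-202 and 0.44 for the names known elsewhere for more than 1 start, beside 0 over all 173 names.

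Apart from miR-145*, the muscle names given here had shifted shares below the medians over the 173 tested names, 2.21% at 30 days and 1.95% at 180 days. For miR-143 and miR-145 of smooth muscle the shares were 1.52% and 1.55% at 30 days and 1.58% and 1.47% at 180 days. The star strand miR-145* had 23 of 472 and 5 of 165 reads shifted, and miR-143* had 0 of 2577 and 0 of 245, which allow shares of up to 0.143% and 1.49%. For miR-1 of striated muscle the shares were 2.07% and 1.496%, for miR-499-5p 1.10% and 0.602%, and for miR-499 12 of 1212 and 1 of 152 reads, 0.9901% and 0.658%, while miR-206 had 0 of 80 and 0 of 4. In the DLK1-DIO3 region, miR-127 had 70 of 1520 reads shifted at 30 days and 0 of 38 at 180 days, miR-409-5p had 1 of 238 and 0 of 6, and miR-485 had 0 of 322 and 0 of 15. At these 180-day depths only large shares could have been seen: 0 of 38 allows up to 9.25%.

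The germ cell names could be described only at 180 days, since none had 50 reads at 30 days. Their shifted shares ran from near 0 to high. For miR-34c, 22 of 16155 reads were shifted, 0.136% (0.0854% to 0.206%), and for miR-34b-5p 2 of 1608, 0.124% (0.0151% to 0.449%). The low share of miR-34b-5p rests on the entries. Pooled with miR-34b by physical start, AGGCAGTG held 91.5% of 2000 reads. The start 1 base before it, TAGGCAGT, held 6.90% (5.83% to 8.10%). Reads there counted as unshifted, because the rat miR-34b entry begins there. For miR-449a, 6.75% of 5647 reads were shifted (6.11% to 7.43%), with 342 reads 1 base later. For miR-34c-3p, from the other arm of the miR-34c precursor, 205 of 466 reads were 1 base later, 44.0% (39.4% to 48.6%). Both strands of this precursor were therefore read at 180 days with very different shifted shares.
miR-34c-3p entry: aATCACTAaccacacggccagg
miR-34c-3p shifted tag, 1 base later: aTCACTAAccacacggccagg
miR-449a entry: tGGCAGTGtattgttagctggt
miR-449a shifted tag, 1 base later: gGCAGTGTattgttagctggt

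The highest shares among names with 1000 or more perfect short reads over both libraries belonged to miR-296, miR-1810, miR-140*, miR-1937a and miR-23b*. For miR-296, of the imprinted GNAS region, 1175 of 1191 reads were shifted at 30 days, 98.7%, and 139 of 141 at 180 days, 98.6%. Nearly all of them shared 1 start, which held 98.5% of reads at 30 days and 98.6% at 180 days, so the reads were uniform and the cow entry began 1 base before them. For miR-1810, 84.3% of 972 reads and 82.5% of 166 were shifted, and its reads lay over 7 starts, of which the most read held 33.2% and 33.7%. For miR-1937a the shares were 35.8% and 32.2%, spread over starts 1 to 3 bases early.

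The rule can also miss a shared start. For miR-101, known for targeting the histone methyltransferase EZH2, only 0.483% of 303260 reads at 30 days and 0.640% of 27977 at 180 days counted as shifted, because the chicken entry begins 1 base before the human one and the reads of each start were named after the matching entry. Pooled with miR-101a by physical start, GTACAGTA held 43.1% at 30 days (43.0% to 43.3%) and 51.0% at 180 days (50.4% to 51.6%), and TACAGTAC held 55.9% and 47.9%. Which start was the more read one thus differed between the libraries. For miR-411, of the DLK1-DIO3 region, 3 of 1491 reads and 0 of 63 were shifted by the rule (with 63 reads, a count of 0 allows a share of up to 5.69%, the upper limit of the interval), while the dog entry's start held 36.3% (33.8% to 38.8%) and 60.3% (47.2% to 72.4%) of reads.
miR-101 chicken entry: gTACAGTActgtgataactgaa
miR-101 human entry: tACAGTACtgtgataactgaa

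Most shifted reads carried the seed of another listed entry, often of the same or a near-identical miRNA under another name. This held for 74.2% of shifted reads at 30 days and 67.0% at 180 days. By distinct tags it held for a minority in both libraries, 704 of 3153 at 30 days. The share of seeds that would match some entry by chance was not tested. The largest part of the reads was miR-140* with the seed of the miR-140 entry, on 95579 and 11735 reads. Among reads whose tag matched no listed entry from its first base without a mismatch, 58.6% and 44.9% carried such a seed. The largest of the latter was AGTAGTC, the seed of chicken miR-199b, on 46864 and 2921 reads of miR-199a-3p and 15219 and 577 of miR-199. Then came CCCTGTA, the seed of fruit fly miR-10, on 10050 and 1673 reads of miR-10b. AGGTAGT, the miR-196 seed, was on the later starts of let-7c, let-7, let-7f, let-7b, let-7g and let-7d. The later start of miR-29a, on 1026 and 350 reads, had the seed of a lancelet entry of miR-29b, and that of miR-25, on 572 and 34 reads, had the seed of miR-92 entries. A shared seed is a match of letters in the lists and was not read as shared targets.

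First bases differed between later, earlier and entry starts. Reads at the entry start began with T in 62.2% at 30 days and 62.9% at 180 days, later starts in 3.87% and 4.46%, and earlier starts in 17.6% and 9.31%. Later starts began with A in 57.3% and 67.3% of reads. Most of these A reads were +1 tags of miR-140*, with 95579 of 139327 at 30 days and 11735 of 17560 at 180 days. By distinct tags, 42.7% and 46.0% of later starts began with A. Earlier starts began with C in 40.9% and 53.8%.

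The 3′ ends were mostly kept. The tag ended at the same base as its entry in 80.7% and 78.2% of later-start reads, in 72.6% and 73.0% of earlier-start reads, and in 77.9% and 76.8% of reads at the entry start. Both ends had moved by the same number of bases in the same direction in 13.8% and 16.1% of later-start reads and in 13.3% and 10.7% of earlier-start reads. Later starts thus came mostly with shorter tags and earlier starts with longer ones.

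The extra base of a start 1 base early was nearly fixed in some miRNAs and mixed in others. It was T in 1630 of 1631 such reads of miR-214 at 30 days and 63 of 64 at 180 days. It was C in 98.2% and 98.1% of those of miR-26a, and in 93.5% and 97.3% of those of let-7f. For let-7c it was C in 1091 and T in 1053 of 2166 reads at 30 days, and C in 138 and T in 80 of 221 at 180 days. For let-7d it was A in 43.1% of 357 reads at 30 days, with 146 C. Of the names with 20 or more such reads, 36 of 66 at 30 days and 15 of 23 at 180 days had 1 base in 90% or more of them. Whether these bases are those of the pig precursor was not tested. Another listed entry held the extra bases for 12.9% of earlier-start reads at 30 days and 13.9% at 180 days, of which 2988 and 507 reads were miR-10b.

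The precursor arm was taken from names ending in -5p or -3p, 63 and 54 names. Names without such an ending were left out, among them miR-199, let-7c and miR-140*. The last is a 3p strand, with 96681 of 231504 reads shifted at 30 days and 11835 of 22191 at 180 days. The arm shares therefore describe only the names with such endings. Names on the 5p arm had 15847 shifted of 461229 reads at 30 days, 3.44%, and 2347 of 84000 at 180 days, 2.79%. Names on the 3p arm had 50716 of 438796, 11.6%, and 3472 of 34803, 9.98%. Each arm rested on 1 name. Without miR-202-5p the 5p shares were 2.48% and 2.23%, and without miR-199a-3p the 3p shares were 5.81% and 8.005%. The median share of a name was 1.87% and 2.43% on the 5p arm (18 names tested), and 3.78% and 3.45% on the 3p arm (13 names).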

How the data were processed

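Per the labels' protocols, each library pooled total RNA of 3 boars, RNA of about 18 to 30 bases was cut from a gel, and the library was amplified with 15 PCR cycles. The authors deposited 1 list per library of tags matched to miRNA entries of many species, with raw read counts per tag, used as deposited. The authors also deposited lengths, matched, mismatched and unmatched bases and an alignment score; the score was not used. Column 10 was read as mismatches. The aligner is not given in the sources used here, nor is the miRBase release or the genome build. A pig hairpin table was not used here, so no genome positions are printed.

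Each tag was placed on its named entry without gaps, and 0 tags had more than 1 shifted placement. Shares per name use that name's reads in perfect tags of 24 bases or less. Physical starts pooled entries identical over 17 or more bases. RPM used the listed totals, 7525725 and 852209 reads, and a count of 0 was bounded by the interval. A script in Python 3.11.15 with pandas 2.3.3, numpy 2.4.6 and scipy 1.17.1 computed all values and was tested on simulated data. Intervals were exact at 95%.

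Names given were the 10 with most shifted reads per library, the leader at each offset, the called names, the 5 highest shares among names with 1000 or more reads, and the 4 most read members of each of 8 lists. The members and lists were chosen with earlier results of these data known. Names outside this rule were picked with their values in view, namely miR-183, miR-25, miR-29a, let-7d, let-7g, miR-192, miR-126, miR-140, miR-486-5p and the names over 10 points with overlapping intervals. Alternatives covered overlap, tag length, reads per tag, the reference start, offsets, denominators and call thresholds.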

Additional observations from a re-analysis of the deposited data

Results flagged for a closer look

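Shifted starts also occurred outside the limits on length and offset. Perfect tags of 24 bases or less that began 4 bases from their entry held 0.0101% of listed reads at 30 days and 0.0126% at 180 days, led by miR-29a with 400 and 51 reads. Perfect tags of 25 bases or more with a start shifted by 1 to 3 bases held 1166 reads (0.0155%) at 30 days and 374 reads (0.0439%) at 180 days, led by miR-140* with 501 and 129. Both were taken up because they lie in listed tags that the comparisons did not use and stand above the 3 reads set as the floor for a count of 0. No control library exists for them.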

How the results depend on the processing

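Values follow as 30 days and then 180 days. The shifted share of listed reads was 3.56% and 3.54% with no limit on tag length, and 4.06% and 4.21% of perfect short reads. Counted from the most read start of each name it was 6.47% and 6.08%, and for offsets of 1 base 3.23% and 3.16%. Without miR-140* it was 2.26% and 2.11%, and of distinct tags 3.83% and 4.90%. It was 2.21% and 2.09% in tags that matched no listed entry of any name from its first base without a mismatch. The last was chosen after seeing the data. An overlap of 18 bases, tags of 2 or more reads, and leaving out tags at the start of a same-name entry each moved it by less than counting error. Later starts held 91.3% and 88.2% of shifted reads in tags of 2 or more reads, and 98.8% and 98.1% when earlier starts counted only where a listed entry holds the extra bases, also chosen after seeing the data. Higher calls numbered 5 at 5 points (miR-10b and miR-486-5p joined), 2 with 200 or more reads (miR-10a had fewer) and 0 at 20 points. Lower calls numbered 4 at 5 points (miR-192 joined), 0 at 20 points, 1 with 200 or more reads (miR-214, while miR-23b* and miR-365* had fewer reads) and 6 from the most read start (miR-126, miR-140 and miR-145* joined). With 20 or more reads miR-183 joined the higher calls, from the most read start miR-411 did, and in tags of 2 or more reads miR-203 was lost from them, at 30.9% and 40.6%. Arm shares moved without their leading name, to 2.48% and 2.23% (5p) and 5.81% and 8.005% (3p), and as medians of names, to 1.87% and 2.43% (5p) and 3.78% and 3.45% (3p). From the most read start, 14 of 66 shares of single names moved by more than counting error, among them miR-101 (45.3% and 53.6%), miR-411 (36.5% and 60.3%) and miR-296 (0.336% and 0%). The cause of these moves was not tested. The alternatives using RefSeq pig mature and hairpin sequences were not run. No paired analysis was possible because each age had 1 library. Depth limits the 180-day values most, where 19 tested names had 0 shifted reads against 5 at 30 days.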
